A study of Mus musculus with 38 samples.

Results

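Immunity-related GTPases (IRGs) are interferon-induced GTP-binding proteins of macrophages that act on the membranes of vacuoles holding intracellular parasites and bacteria. The family has a regulatory class and an effector class. The regulators sit on the cell's own membranes and keep the effectors inactive there, and the effectors gather on pathogen vacuoles and help to break them. Interferon-gamma induces the family through its receptor and through promoter elements known as gamma-activated sites (GAS) and interferon-stimulated response elements (ISRE), the latter bound by interferon regulatory factors. The set described here was taken by symbol and holds 6 of the 11184 genes in the deposited expression table: the regulators Irgm1, Irgm2 and Igtp, and the effectors Iigp1 (Irga6), Tgtp1 and Tgtp2 (copies of Irgb6). All 6 passed the expression minimum, which 9942 genes passed. Tgtp1 passed only through the 4 h libraries, the group where it was highest, so it had to differ from the other groups.

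The cells were primary macrophages grown from the bone marrow of C57BL/6 mice, and every RNA group had 4 libraries. Cells were left unstimulated (0 h, also called M0) or received lipopolysaccharide (LPS, 5 ng/ml) with interferon-gamma (IFNg, 12 ng/ml) for 4, 8, 16 or 24 h. In a further arm, cells got the same LPS and IFNg, lactic acid was added 4 h later, and RNA was taken at 8, 16 and 24 h. Those times are read as counted from LPS and IFNg, and the labels give no lactic acid dose. Chromatin was profiled in M0 and in M1 cells (24 h of LPS and IFNg) for 2 modifications of lysine 18 of histone H3, lactylation (H3K18la) and acetylation (H3K18ac), with 1 library for each. The labels do not say that replicates came from separate animals or cultures, so p-values measure the spread between libraries, which may be technical. In bulk RNA, a smaller share of responding cells and less RNA per cell cannot be told apart.

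Values are RPKM, reads scaled for gene length and for a library size set by the authors, and can be compared between genes. Listed genes held 60633872 to 103927625 reads in a library, as recovered from the RPKM. All 10 macrophage markers looked for were listed, at a summed level of 18014 to 20501 RPKM at 0 h and 13744 to 14784 RPKM at 4 h, and none of 6 erythroid and mast cell markers was. Of 7 dendritic cell markers, Xcr1 and Ccr7 were listed. Their sum was 0.0273 to 0.0906 RPKM at 0 h and 2.60 to 3.17 RPKM at 4 h. Of 10 neutrophil and precursor markers, 5 were listed, with sums of 10.4 to 16.1 RPKM at 0 h and 55.4 to 84.2 RPKM at 4 h. Of 8 stromal and endothelial markers, 5 were listed, which summed to 1.33 to 1.61 RPKM at 4 h, against 0.299 to 0.571 RPKM at 0 h. Cd4, the single listed one of 11 lymphocyte markers, lay between 0.370 and 0.771 RPKM at 0 h and between 0.0761 and 0.0985 RPKM at 4 h. The slope of log2 level on gene length, per doubling, was 0.097 to 0.147 at 0 h and -0.022 to 0.016 at 4 h. The part of these cells and of the length trend in the 4 h results was not tested. Replicate 4 of 24 h and replicate 1 of lactic acid at 24 h stood apart from their groups on the second principal component (17.9 against 8.7 to 11.6, and 28.6 against 22.6 to 25.2), and the limma results of the IRGs at 24 h are given with and without them.

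The promoters of the IRGs on chromosome 11 are shown because those 5 genes all rose after LPS and IFNg and carry letters of interferon elements, the ISRE core in all 5 and the GAS core in 4. The 120 bases before each RefSeq start site (build GRCm38.p6) are printed 5′ to 3′ along the gene. Capitals mark matches to the ISRE core (TTTC, any 2 bases, TTTC), which reads GAAA, any 2 bases, GAAA on the printed strand, and to the GAS core TTCNNNGAA, which reads the same on both strands. In Irgm1, 2 overlapping ISRE matches form a single block of capitals.
Irgm1: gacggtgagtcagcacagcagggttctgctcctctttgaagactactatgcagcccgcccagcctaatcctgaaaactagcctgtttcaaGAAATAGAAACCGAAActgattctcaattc
Irgm2: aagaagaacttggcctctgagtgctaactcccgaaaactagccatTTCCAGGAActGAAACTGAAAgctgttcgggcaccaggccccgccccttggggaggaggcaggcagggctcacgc
Igtp: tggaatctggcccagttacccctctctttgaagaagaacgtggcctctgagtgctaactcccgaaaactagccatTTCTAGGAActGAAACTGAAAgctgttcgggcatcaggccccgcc
Tgtp1: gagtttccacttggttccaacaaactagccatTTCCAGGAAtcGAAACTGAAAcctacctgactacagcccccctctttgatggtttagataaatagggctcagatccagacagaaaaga
Tgtp2: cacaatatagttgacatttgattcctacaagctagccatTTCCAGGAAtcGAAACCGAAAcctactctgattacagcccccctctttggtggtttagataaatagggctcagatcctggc
The Irgm1 stretch lies at chr11:48871421-48871540 on the minus strand, and the Irgm2 stretch at chr11:58214857-58214976 on the plus strand. The Igtp stretch is chr11:58199436-58199555 on the plus strand. Those of Tgtp1 (chr11:48992247-48992366) and Tgtp2 (chr11:49064213-49064332) are both on the minus strand. All 5 are upstream of the annotated transcripts. No promoter is shown for Iigp1.

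Exact letters were searched on both strands of a 300-base window, from 250 bases before to 50 bases after the start site. The ISRE core was found in 5 of 5 IRG windows and in 3.44% of the 32851 windows of the RefSeq table. The GAS core was found in 4 of 5, all but Irgm1, and in 8.3% of all windows. Both cores within 20 bases of each other were found in the same 4 and in 53 windows of the table, 0.161%. In each of the 4 the GAS core came first and the ISRE core followed after a gap of 2 bases. In Tgtp1 they span 88 to 68 bases before the start site, in Tgtp2 81 to 61, in Irgm2 75 to 55 and in Igtp 45 to 25. The Irgm1 pair of ISRE matches spans 30 to 15 bases before it. A run of 6 letters, CTAGCC, stood just ahead of these matches in all 5, and in 6.51% of all windows. It was picked because these promoters share it. A kappa-B-like sequence (GGGA, any 2 bases, TTCC) was in none of the 5 windows and in 1.47% of all. A match is a description of the letters and not evidence of binding. Over the 300 bases, aligned promoters were 73.5% identical between Irgm2 and Igtp and 67.7% identical between Tgtp1 and Tgtp2, against 46.4% to 53.9% for the other 8 pairs.

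**Figure D1:**
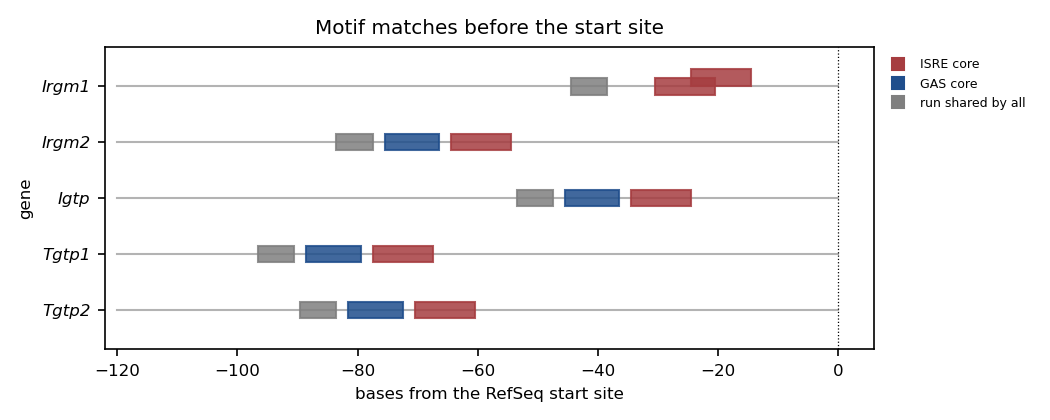
Positions of letter matches in the 120 bases before the start site of the 5 IRGs with a promoter in the table; the horizontal axis is bases from the RefSeq start site and each row is a gene. In Irgm2, Igtp, Tgtp1 and Tgtp2 the shared run, the GAS core and the ISRE core follow each other in that order, and Irgm1 has 2 overlapping ISRE cores and no GAS core.

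All 6 IRGs rose within 4 h of LPS and IFNg, by 7.09 to 72.6 times in mean RPKM with Tgtp1 set aside. Tgtp1 rose 121 times, but it had to be higher at 4 h, since only its 4 h libraries reached the expression minimum. The 3 regulators were already present in unstimulated cells, at means of 15.7 to 20.9 RPKM, and the effectors were at 2.45 RPKM or below. Of all genes tested, 42.5% were higher at 4 h by the same call, limma's test with a Benjamini-Hochberg adjusted p under 0.05. The median difference of the 6 was 3.36 on the log2(RPKM + 1) scale, against 0.00 over all genes tested.

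Irgm1, a regulator also needed for autophagy and for resistance to mycobacteria, stood at 18.82, 20.03, 24.03 and 20.80 RPKM at 0 h. At 4 h its libraries read 143, 154, 147 and 149 RPKM. The groups did not overlap, and the difference was 2.77 ± 0.08 (SE) on the log2(RPKM + 1) scale, adjusted p = 4e-25. Irgm2, a regulator found on Golgi and other endomembranes, had 13.8, 15.0, 18.4 and 15.5 RPKM at 0 h. It reached 113, 121, 114 and 117 RPKM at 4 h, a log2 difference of 2.82 ± 0.09 (SE), adjusted p = 2.9e-23. The means of these 2 regulators rose 7.09 and 7.40 times, and every Irgm1 library was above every Irgm2 library at both times. Igtp (Irgm3), the regulator of endoplasmic reticulum and lipid droplet membranes, went from 15.3, 17.4, 20.3 and 16.5 RPKM to 308, 349, 327 and 330 RPKM. Its mean rose 18.9 times, to the highest level of the family, with a log2 difference of 4.17 ± 0.08 (SE), adjusted p = 4e-29.

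Iigp1, the effector Irga6, which gathers on the Toxoplasma vacuole, stood at 2.01, 2.31, 3.14 and 2.33 RPKM at 0 h. It reached 130, 213, 186 and 182 RPKM at 4 h. Replicate 1 was low at both times, the groups were far apart, and the mean rose 72.6 times (log2 difference 5.68 ± 0.15, SE, adjusted p = 3e-25). Tgtp2, an Irgb6 effector that binds vacuole phospholipids, had 1.34, 2.01, 2.50 and 1.99 RPKM at 0 h and 34.3, 48.9, 45.5 and 44.8 RPKM at 4 h. Its mean rose 22.1 times, again with the lowest value in replicate 1 at both times (log2 difference 3.91 ± 0.11, SE, adjusted p = 2.3e-24). Tgtp1, the neighbouring copy, was near the limit of detection at 0 h, with 4, 7, 7 and 7 reads, or 0.0145 to 0.0266 RPKM. It reached 2.00, 3.64, 2.79 and 2.61 RPKM at 4 h, from 543 to 921 reads. The ratio of its means was 121, but its log2(RPKM + 1) difference was only 1.86 ± 0.07 (SE), adjusted p = 1.3e-21, because the added 1 RPKM outweighs the level at 0 h. The authors' deposited table gives Tgtp1 a log2 fold change of 6.895 at 4 h.

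The 2 Tgtp genes share most of their sequence, and how the counting placed reads that fit both is not given in the sources used here, so their separate values are uncertain. Tgtp1 took 1.01% to 1.42% of the reads of both genes at 0 h and 5.96% to 7.50% at 4 h. The share was 4.44% to 6.52% at 8 h, 1.64% to 3.32% at 16 h and 0.772% to 2.76% at 24 h. It was highest at 4 h, when the summed reads were 9089 to 13649, and the 24 h values overlapped those of 0 h.

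**Figure D2:**
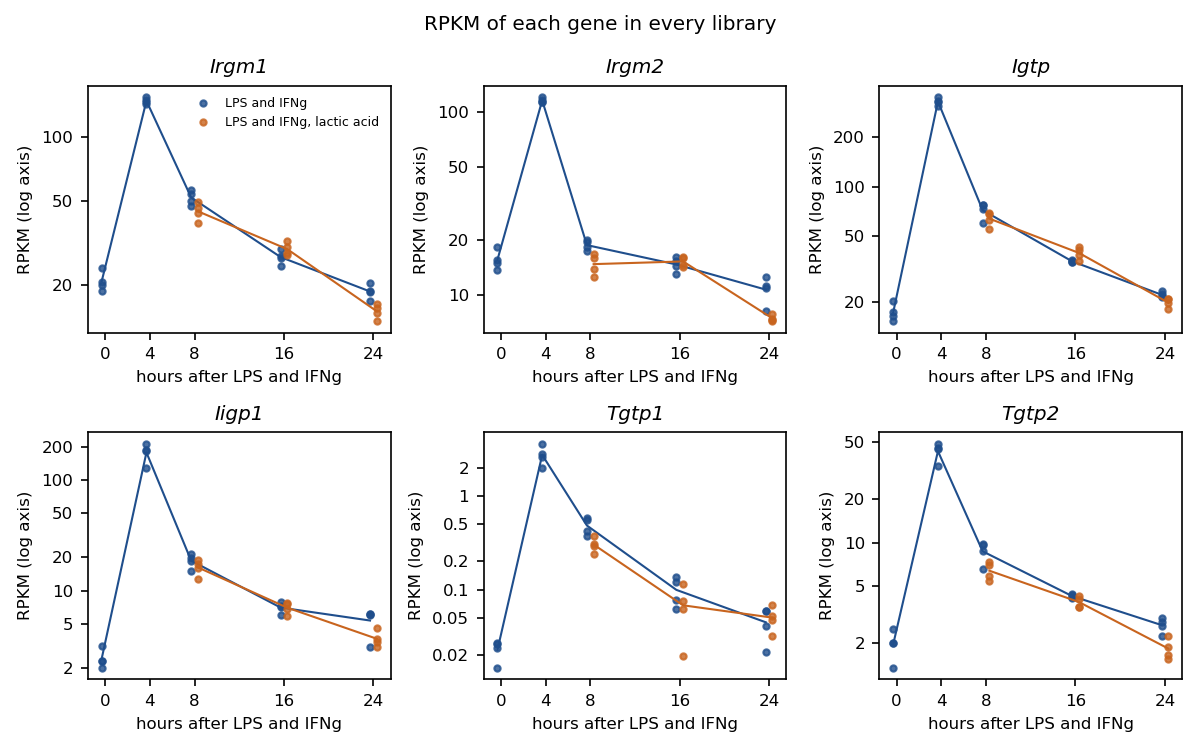
RPKM of each IRG (log axis, a different range in each panel) against hours after LPS and IFNg; each point is 1 library, lines join group means of 4 libraries, and orange marks cells given lactic acid at 4 h. All 6 genes were highest at 4 h, and the 24 h libraries lay between 0.0214 RPKM (Tgtp1) and 23.4 RPKM (Igtp).

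The order of the genes changed with stimulation. By mean RPKM at 0 h it was Irgm1, Igtp, Irgm2, Iigp1, Tgtp2 and Tgtp1. Replicate ranges overlapped between Irgm1 and Igtp, between Igtp and Irgm2 and between Iigp1 and Tgtp2. At 4 h the order was Igtp (328 RPKM), Iigp1 (178), Irgm1 (148), Irgm2 (116), Tgtp2 (43.4) and Tgtp1 (2.76), with an overlap between Iigp1 and Irgm1 alone among neighbours. Iigp1 thus moved from below all 3 regulators to above Irgm2, with a range that held all 4 values of Irgm1. By 24 h the order was Igtp (22.2 RPKM), Irgm1 (18.7), Irgm2 (10.8), Iigp1 (5.39), Tgtp2 (2.66) and Tgtp1 (0.0447), and no neighbours overlapped.

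The log2 ratio of RPKM + 1 between 2 IRGs in the same library differed between 4 h and 0 h for each of the 15 pairs. Each had p = 0.0286 by a two-sided exact permutation test, the smallest that 4 against 4 libraries allow, also after adjustment over the pairs. The ratio of Irgm1 to Iigp1 changed by -2.91 log2 units, that of Irgm2 to Iigp1 by -2.87 and that of Igtp to Iigp1 by -1.51, so the effector outran each regulator. The ratio of Irgm1 to Irgm2 changed by only -0.044 log2 units. With 0.1 in place of 1 RPKM added, the signs of 5 pairs turned, 4 of them with Tgtp1. Irgm1 over Tgtp1, for example, went from 0.91 to -1.69 log2 units. The fifth, Igtp over Tgtp2, went from 0.26 to -0.18 log2 units (adjusted p = 0.28 by the same exact test). Igtp over Tgtp1 and Tgtp1 over Tgtp2 also missed the threshold in that setting (adjusted p = 0.16 and 0.54, exact test).

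From 4 h onward all 6 IRGs fell. They were lower at 8 h than at 4 h (background 36.9% of genes lower and 34.8% higher) and lower again at 16 h than at 8 h (34.2%). At 24 h the means were 1.62% to 12.6% of those at 4 h, and all 6 were lower than at 4 h (41.3% lower, 42.3% higher). Tgtp1 had to be lower than at 4 h at both times, since only its 4 h libraries reached the expression minimum. Iigp1 had fallen fastest by 8 h, to 10.5% of its 4 h mean, and Irgm1 slowest, to 35.0%. Between 16 and 24 h, 4 of 6 fell further (23.3%). Iigp1 had a log2 difference of -0.37 ± 0.15 (SE, adjusted p = 0.050) in that last step and Tgtp1 one of -0.07 ± 0.07 (SE, adjusted p = 0.40). The mean of Tgtp1 went from 0.0993 to 0.0447 RPKM there, which the added 1 RPKM outweighs. With 0.1 RPKM added both were called lower, Iigp1 at -0.429 (adjusted p = 0.046) and Tgtp1 at -0.454 (adjusted p = 0.025). Limma-voom on the recovered reads also called Tgtp1 lower (-1.172, adjusted p = 0.041). Leaving out replicate 1 of 16 h or any of replicates 1 to 3 of 24 h brought Iigp1 under the threshold (-0.43 to -0.44). Without replicate 4 of 24 h, which stood apart, its difference was less than that, at -0.17 (adjusted p = 0.33). In the same setting the other 5 IRGs kept their calls or lack of a call in that step, with Irgm2 at -0.32 and Tgtp2 at -0.46, and all 6 were still lower at 24 h than at 4 h (-1.84 to -4.62). Over the hours from 4 to 24 h the summed macrophage markers went to 36281 to 48533 RPKM, the neutrophil and precursor markers to 21.8 to 34.4 RPKM and the dendritic cell markers to 0.0775 to 0.450 RPKM, and their part in the decline was not tested.

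Irgm1 went through 54.08, 47.15, 56.50 and 49.96 RPKM at 8 h and 27.5, 24.7, 26.8 and 29.6 RPKM at 16 h. It ended at 18.7, 16.8, 20.5 and 18.7 RPKM at 24 h, where 3 of 4 libraries were below the lowest 0 h library and 1 was inside the 0 h range. Irgm2 was already at 17.42 to 19.97 RPKM by 8 h, which overlapped its 0 h range, and its 24 h libraries held 11.0, 11.2, 12.6 and 8.27 RPKM. All 4 of those were below the lowest 0 h library. Igtp stood at 60.0 to 77.8 RPKM at 8 h and 34.9 to 36.2 RPKM at 16 h. Its 24 h libraries, at 21.4, 21.7, 22.3 and 23.4 RPKM, remained above every 0 h library.

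Iigp1 had 15.2 to 21.3 RPKM at 8 h, 6.05 to 7.87 RPKM at 16 h and 6.07, 6.16, 6.21 and 3.12 RPKM at 24 h. The last of these, replicate 4, was the one that overlapped the 0 h range. Tgtp2 stood at 6.58 to 9.81 RPKM at 8 h, 4.088 to 4.399 RPKM at 16 h and 2.996, 2.632, 2.790 and 2.241 RPKM at 24 h. Tgtp1 fell from 0.370 to 0.589 RPKM at 8 h to between 0.0627 and 0.136 RPKM at 16 h. At 24 h it was carried by 5 to 12 reads, 0.0214 to 0.0585 RPKM.

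Set against unstimulated cells, 6 of 6 were still higher at 8 h (background 40.7% higher, 42.1% lower) and 4 of 6 at 16 h (39.9%). Irgm2 and Tgtp1 were not called at 16 h. Tgtp1 stood at 0.10 ± 0.07 there (SE, adjusted p = 0.17), on a scale where the added 1 RPKM outweighs its level. It was called higher with 0.1 RPKM added (0.684, adjusted p = 0.00047) and with limma-voom on the recovered reads (2.026, adjusted p = 0.00059). A fit of the groups compared alone called it too (0.104, adjusted p = 0.011). At 24 h the family had split, with Iigp1, Igtp and Tgtp2 higher (39.9%), Irgm2 lower (37.3%) and Irgm1 and Tgtp1 not called. The log2 differences from 0 h at 24 h were 0.86 ± 0.15 (SE, adjusted p = 9.6e-06) for Iigp1, 0.34 ± 0.08 (SE, adjusted p = 0.00033) for Igtp and 0.32 ± 0.11 (SE, adjusted p = 0.013) for Tgtp2. The Irgm2 difference was -0.51 ± 0.09 (SE, adjusted p = 9e-06). Irgm1 had -0.15 ± 0.08 (SE, adjusted p = 0.069). Without replicate 4 of 24 h the calls were the same, at 1.06 for Iigp1, 0.32 for Igtp, 0.38 for Tgtp2 and -0.40 for Irgm2, with Irgm1 at -0.15 (adjusted p = 0.091). With the length trend removed, Igtp (0.164, adjusted p = 0.068) and Tgtp2 (0.251, adjusted p = 0.053) were not called at 24 h. The slope on gene length was 0.097 to 0.147 at 0 h and -0.211 to -0.001 at 24 h, and its part was not tested. Scaling each library to its reads in listed genes brought the median difference of all genes from 0 h to -0.43 at 4 h, to -0.40 and -0.30 at 8 and 16 h, and to -0.37 at 24 h, from between -0.012 and 0.017. The share of called genes that were higher went with it, from 49.9% to 26.9% at 4 h and from 51.6% to 20.4% at 24 h. This listed-gene scaling turned the sign of Irgm2 at 8 h (to -0.20), Irgm1 at 16 h (to -0.007), and Igtp (to -0.12) and Tgtp2 (to -0.013) at 24 h. It also brought Irgm2 at 16 h (-0.445, adjusted p = 0.00048) and Irgm1 at 24 h (-0.615, adjusted p = 1.9e-07) under the threshold as lower than at 0 h. Without replicate 1 of 0 h, Irgm2 at 8 h and Tgtp2 at 24 h missed the threshold (0.20 and 0.21), and Irgm1 at 24 h came under it (-0.20). Leaving out replicate 3 of 24 h likewise brought Irgm1 at 24 h under it (-0.20).

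**Figure D3:**
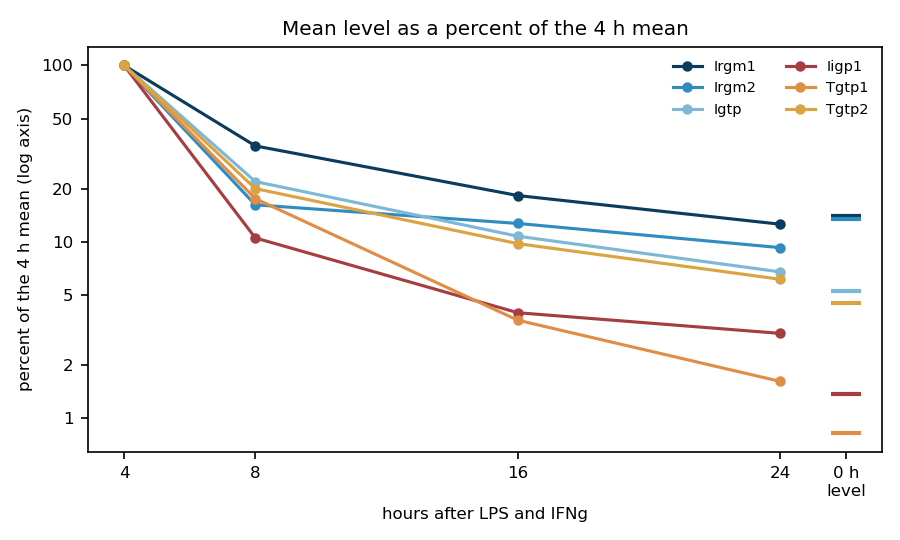
Mean RPKM of each IRG at 4, 8, 16 and 24 h as a percent of its own 4 h mean (log axis, 4 libraries per point), with the 0 h mean as a bar at the right. At 24 h the means were 12.6% (Irgm1), 9.28% (Irgm2), 6.76% (Igtp), 6.14% (Tgtp2), 3.03% (Iigp1) and 1.62% (Tgtp1) of those at 4 h.

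The decline from 4 to 24 h was uneven within the family. Of the 15 within-library ratios, 13 differed between 24 h and 4 h (adjusted p = 0.033, two-sided exact permutation test). Igtp over Tgtp2 and Irgm2 over Tgtp2 did not pass, at -0.24 log2 units (adjusted p = 0.11, exact test) and 0.26 log2 units (adjusted p = 0.092, exact test). Irgm1 gained 1.89 log2 units on Iigp1 and 0.90 on Igtp over those hours, and 0.40 on Irgm2. With 0.1 RPKM added, 5 of these ratios changed sign, the same 4 with Tgtp1 and Igtp over Tgtp2. Irgm2 over Igtp, Irgm2 over Tgtp1 and Igtp over Tgtp1 then missed the threshold (each adjusted p = 0.066, exact test). Tgtp1 over Tgtp2 did too (adjusted p = 0.15), and Irgm2 over Tgtp2 came under it (adjusted p = 0.043, exact test).

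Lactic acid added at 4 h was followed by small differences. At 8 h, 4 of 6 IRGs were lower with lactic acid than without (background 36.0%), with log2 differences of -0.19 to -0.39. No IRG was called at 16 h by limma-trend, against 30.2% of genes higher and 31.0% lower. None had an unadjusted p under 0.05 there (the lowest was 0.054, for Igtp), and none was called by limma-voom on the recovered reads. At 24 h, 4 of 6 were lower (21.7%), with log2 differences of -0.29 to -0.46. The count at 8 h rested on few libraries. Without replicate 3 of 8 h, or without replicate 3 of lactic acid at 8 h, 2 of 6 were called. At 8 h the summed macrophage markers were 10734 to 11352 RPKM with lactic acid and 14104 to 16133 RPKM without, and the neutrophil and precursor markers 38.8 to 51.0 and 56.3 to 70.4 RPKM. The stromal and endothelial markers were at 2.27 to 2.91 RPKM with it and 1.84 to 1.96 RPKM without at 8 h, and at 2.14 to 2.78 and 1.44 to 1.80 RPKM at 24 h. The slope on gene length was 0.13 to 0.163 with lactic acid and -0.081 to -0.004 without at 8 h, while at 24 h the slopes overlapped. The part of these in the lactic acid results was not tested.

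Irgm2 had the clearest difference. With lactic acid it read 13.9, 16.0, 12.7 and 16.7 RPKM at 8 h and 7.22, 7.48, 7.95 and 7.33 RPKM at 24 h. Neither range reached that of the cells without lactic acid, which was 17.42 to 19.97 RPKM at 8 h and 8.27 to 12.6 RPKM at 24 h. The log2 differences were -0.33 ± 0.09 (SE, adjusted p = 0.0021) and -0.46 ± 0.09 (SE, adjusted p = 0.00014). At 16 h its libraries with lactic acid, at 14.3 to 16.3 RPKM, lay over those without, at 13.0 to 16.2 RPKM. Irgm1 at 24 h was 13.5, 15.6, 16.3 and 14.8 RPKM with lactic acid, below all libraries without it (-0.29 ± 0.08, SE, adjusted p = 0.0023). Without both libraries that stood apart, the 24 h differences were -0.55 (adjusted p = 9e-06) for Irgm2 and -0.24 (adjusted p = 0.017) for Irgm1. At 8 h its ranges overlapped, 39.4 to 49.2 RPKM with and 47.2 to 56.5 RPKM without (-0.21 ± 0.08, SE, adjusted p = 0.015).

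Igtp did not pass at any of the 3 times with all libraries. At 8 h its log2 difference was -0.17 (adjusted p = 0.069). It came under the threshold there without replicate 2 of 8 h (-0.251, adjusted p = 0.0062) or replicate 2 or 4 of lactic acid at 8 h (-0.208 and -0.197, adjusted p = 0.037 and 0.049), and with the length trend removed its sign turned (0.033). It held 20.9, 19.7, 20.9 and 18.1 RPKM at 24 h with lactic acid, all below the lowest library without, and its log2 difference was -0.15 ± 0.08 (SE, adjusted p = 0.12), or -0.15 (adjusted p = 0.17) without both libraries that stood apart. At 16 h it stood at 35.8 to 43.3 RPKM with lactic acid and 34.9 to 36.2 RPKM without (0.16 ± 0.08, SE, adjusted p = 0.082). Removing the trend of each library with gene length brought Igtp under the threshold at both times, higher at 16 h (0.29, adjusted p = 0.0031) and lower at 24 h (-0.20, adjusted p = 0.038). Listed-gene scaling likewise brought it under the threshold at 16 h (0.20, adjusted p = 0.031) and at 24 h (-0.354, adjusted p = 0.00038), and moved the share of called genes that were higher with lactic acid at 24 h from 54% to 18.3%. At 16 h Igtp also passed in a fit of the groups compared alone (0.16, adjusted p = 0.035) and without replicate 4 of lactic acid at 16 h (0.21, adjusted p = 0.035).

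Among the effectors, Tgtp2 was lower at 8 h (-0.39 ± 0.11, SE, adjusted p = 0.0037) and at 24 h (-0.38 ± 0.11, SE, adjusted p = 0.0081; -0.44 without both libraries that stood apart). Its 24 h libraries with lactic acid read 1.86, 2.25, 1.64 and 1.56 RPKM, and the highest of them just passed the lowest library without (2.24 RPKM). Iigp1 read 3.08, 4.61, 3.63 and 3.42 RPKM at 24 h with lactic acid. Of the libraries without it, 3 lay above that range, at 6.07 to 6.21 RPKM, and replicate 4 lay inside it, at 3.12 RPKM (-0.42 ± 0.15, SE, adjusted p = 0.026). Without replicate 4 of 24 h, the Iigp1 difference was -0.62 (adjusted p = 0.00041), and without both libraries that stood apart it was -0.56 (adjusted p = 0.0022). It missed the threshold without any of replicates 1, 2 and 3 of 24 h or replicates 1 and 4 of lactic acid at 24 h (-0.39 to -0.35, adjusted p 0.055 to 0.091). With all libraries kept, Iigp1 also missed it in a fit of the groups compared alone (-0.419, adjusted p = 0.11). Tgtp1 was lower at 8 h, at 0.242 to 0.372 RPKM against 0.370 to 0.589 RPKM (-0.19 ± 0.07, SE, adjusted p = 0.019), and had 7 to 15 reads at 24 h. That Tgtp1 call was lost without replicate 1 or 3 of 8 h or replicate 3 of lactic acid at 8 h (adjusted p 0.058 to 0.073), and the Irgm1 call at 8 h without replicate 3 of either group (adjusted p 0.066 and 0.085). Irgm1 at 8 h also missed it under listed-gene scaling (-0.126, adjusted p = 0.21), and Tgtp1 with the length trend removed (-0.131, adjusted p = 0.10).

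**Figure D4:**
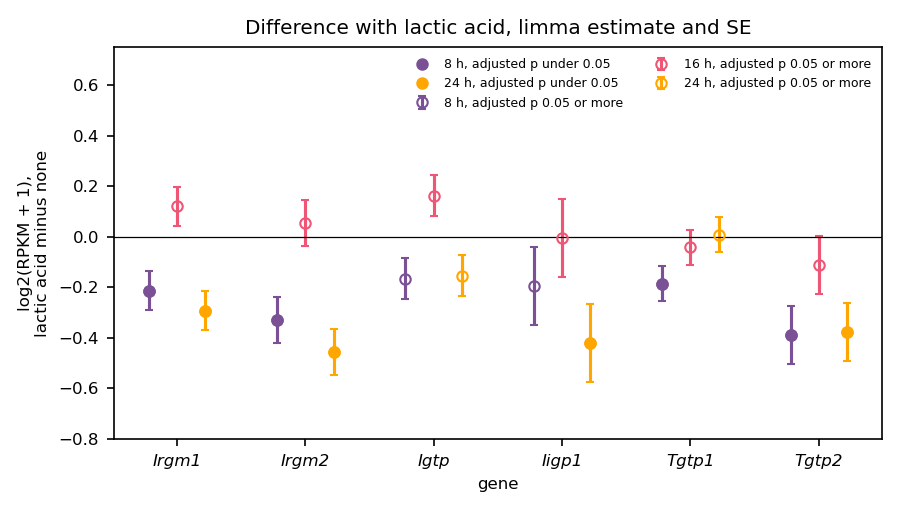
Difference between cells with and without lactic acid for each IRG (x axis) at 8, 16 and 24 h, on the log2(RPKM + 1) scale, as the limma estimate with its standard error (4 libraries per group). Filled points have an adjusted p under 0.05; at 16 h the estimates ran from -0.11 (Tgtp2) to 0.16 (Igtp) and none was called.

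The difference with lactic acid was itself compared between times. Irgm1, Irgm2 and Igtp, the 3 regulators, had a higher difference at 16 h than at 8 h (by 0.33 to 0.39 log2 units, background 10.6% of genes higher and 10.2% lower) and a lower one at 24 h than at 16 h (-0.32 to -0.51, 23.3%). The effectors passed neither test. In the same order of steps, Iigp1 had 0.19 ± 0.22 and -0.41 ± 0.22 (SE), and Tgtp2 0.28 ± 0.16 and -0.26 ± 0.16. Tgtp1 had 0.14 ± 0.10 and 0.05 ± 0.10. Whether the 2 classes differ in these changes was not tested. Between 24 and 8 h none of the 6 passed by limma-trend or limma-voom, against 32.7% of genes higher and 29.7% lower, and none had an unadjusted p under 0.05. Without replicate 4 of 24 h, Iigp1 passed there (-0.423, adjusted p = 0.047), and without both libraries that stood apart it did not (-0.36, adjusted p = 0.099). With all libraries Tgtp1 came nearest by limma-trend, at 0.19 ± 0.10 (SE, unadjusted p = 0.057, adjusted p = 0.086). It passed with 0.1 RPKM added (0.583, adjusted p = 0.032) and in a fit of the groups compared alone (0.194, adjusted p = 0.015). Without replicate 4 of 8 h it passed too (0.231, adjusted p = 0.049). Listed-gene scaling called Irgm1 (-0.362, adjusted p = 0.012), Irgm2 (-0.393, adjusted p = 0.027) and Igtp (-0.276, adjusted p = 0.031) lower. Calls between 16 and 8 h were fragile. None of the 6 was left without replicate 1 or 3 of 8 h, replicate 2 of 16 h, replicate 3 of lactic acid at 8 h or replicate 2 of lactic acid at 16 h, and none under listed-gene scaling. A single IRG was left without replicate 3 of 16 h or replicate 1 of lactic acid at 8 h or 16 h. From 16 to 24 h the Igtp call was lost without replicate 2 of lactic acid at 16 h (adjusted p = 0.055) or replicate 4 of lactic acid at 24 h (adjusted p = 0.052). Iigp1 came under the threshold there without replicate 4 of 24 h (-0.61, adjusted p = 0.0066) and without both libraries that stood apart (-0.55, adjusted p = 0.017). In that last setting Irgm1, Irgm2 and Igtp were at -0.364, -0.605 and -0.315, each still called.

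Within-library ratios gave no difference between lactic acid and none at 24 h for any of the 15 pairs (adjusted p 0.14 to 0.83, two-sided exact permutation test). Unadjusted, 3 pairs had p = 0.0286 by that exact test, each a regulator over Tgtp1. Tgtp1 held 5 to 12 reads at 24 h without lactic acid and 7 to 15 with it. With 0.1 RPKM added, the unadjusted p was 0.086 for Irgm1, 0.057 for Irgm2 and 0.2 for Igtp over Tgtp1 (exact test).

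In M0 chromatin the regulators and the effectors differed in their peaks. A peak was counted for a gene when it overlapped the gene or the 10 kb on either side. Irgm1, Irgm2 and Igtp had a peak over the start site for both marks in both states. Of all 8771 genes with a promoter window, 60.4% had peaks of both marks in both states over that window, and 82.2% of 11126 placed genes had them within 10 kb. No H3K18la peak of M0 lay near any of the 3 effectors, while 95.1% of genes had one. All 3 had an H3K18la peak in M1 (background 83.4%). Genes with H3K18la in M1 and not in M0 made up 1.06% of the list and 3 of 6 IRGs. An H3K18ac peak lay near 4 of 6 IRGs in M0 (background 96.7%), all but Tgtp1 and Tgtp2, and near 6 of 6 in M1 (95.4%). Tgtp1 and Tgtp2 had neither mark in M0 and both in M1, a pattern found in 33 placed genes, 0.297%. With 1 library per mark and state there is no test, and the values below are the authors' own for each peak.

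Irgm1 spans chr11:48865245-48871420 on the minus strand. Its H3K18la peak covered 3166 bases in M0, from 1662 before to 1503 after the start site, at a fold enrichment of 16.25. The M1 peak covered 6629 bases at 25.1, and none of the 16139 peaks in that list had a higher fold enrichment. The median of the list went the other way, 5.41 in M0 and 4.16 in M1. For H3K18ac the start-site peak covered 4568 bases in M0 and 9861 bases in M1, at fold enrichments of 8.07 and 14.7, and 1 of the 42237 M1 peaks was higher. Igtp (chr11:58199556-58207592, plus strand) had start-site peaks of 1047 bases in M0 and 2892 bases in M1 for H3K18la, at 6.13 and 8.59. Its H3K18ac peak there measured 1073 and 10444 bases. Irgm2 (chr11:58214977-58222783, plus strand) begins 7.4 kb beyond the end of Igtp, so their windows share peaks. Over its start site the H3K18la peaks measured 1696 and 2599 bases, at 5.88 and 7.64, and the H3K18ac peaks 1997 and 4103 bases. At all 3 start sites the M1 peak of each mark was the wider one, although the M1 list of H3K18la is the shorter (16139 peaks, against 21885 in M0). Peak widths move with depth and calling, and their part was not tested. Spike-in reads, counted apart from mouse reads, were 310066 in M0 and 141688 in M1 for H3K18la. For H3K18ac they were 52482 and 50470. No scaling by them was applied here, so the M0 and M1 values may not share a scale, which was not tested.

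Tgtp1 (chr11:48985329-48992246) and Tgtp2 (chr11:49057196-49064212) lie 65.0 kb apart on the minus strand. In M1, the H3K18la peak of Tgtp1 ran from 2609 to 119 bases before its start site, at a fold enrichment of 7.98, and its H3K18ac peak from 5801 to 36 bases before it, at 6.39. Tgtp2 had shorter peaks in the same place. Its H3K18la peak ran from 639 to 65 bases before the start site, at 11.96 and a higher fold than 99.0% of that list, and its H3K18ac peak from 642 to 101 bases before it, at 6.82. These 4 peaks ended short of the start site and inside the stretches printed above. The H3K18la peak of Tgtp2 reached into the ISRE core at 70 to 61 bases before the start site, and the H3K18ac peak of Tgtp1 covered both cores. The other 2 ended upstream of both cores. Smaller M1 H3K18ac peaks lay 1154 to 1438 bases inside Tgtp1 (fold enrichment 3.57) and 8807 to 8326 bases before Tgtp2 (3.43). Peak edges are those the caller drew, so these distances carry its resolution. Reads that fit both copies may be missing or shared here too, which was not tested.

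Iigp1 spans 19019 bases of chromosome 18, and the tables used give no strand, so distances are from its low-coordinate end. In M1 it had an H3K18la peak of 3049 bases from 4 bases outside that end to 3044 bases inside the gene, at a fold enrichment of 5.95. An H3K18ac peak of 4138 bases covered the same place, at 5.51. Smaller M1 peaks of both marks lay further inside, of 300 bases for H3K18la (3.94) and 937 bases for H3K18ac (4.22). M0 had no peak of either mark at that end. The single M0 peak near Iigp1 was an H3K18ac peak of 622 bases about 8.1 kb inside the gene, with a -log10 q of 3.1. When peaks were required to have a -log10 q of at least 5, it dropped out and 3 of 6 IRGs had no M0 peak and both marks in M1. With windows of 50 kb in place of 10 kb, 1 of 6 did.

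**Figure D5:**
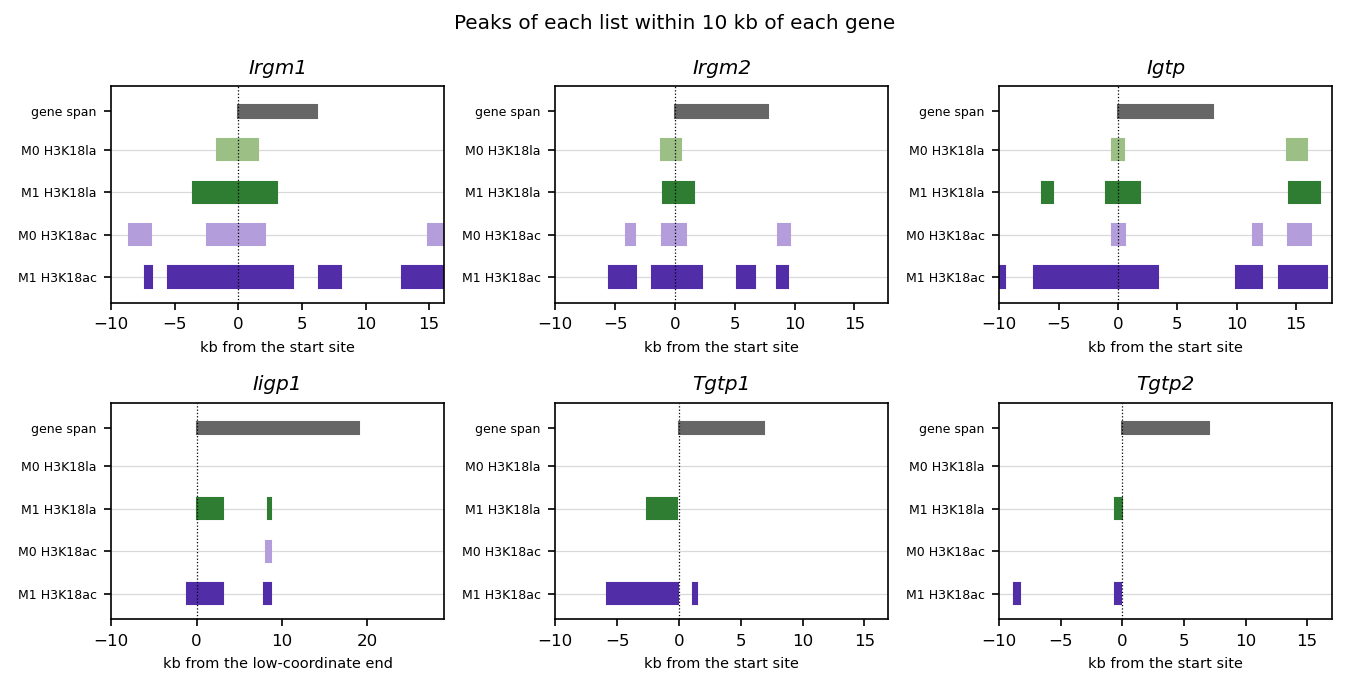
Peaks of each deposited list near each IRG; the horizontal axis is kb from the start site along the gene (for Iigp1, from its low-coordinate end), grey is the gene span, and each coloured box is a peak of the row's mark and state (1 library each). The M0 rows are empty for Tgtp1 and Tgtp2, and for Iigp1 they hold 1 box of 622 bases.

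Over the 32 libraries the log2(RPKM + 1) values of the 6 IRGs were correlated with each other, with Pearson's r from 0.903 (Irgm2 and Igtp) to 0.991 (Iigp1 and Tgtp2). The libraries share the same groups and the same peak at 4 h, so these values describe that shared course. The tested genes closest to the mean of the 6 were Zeb1, Enpp4, Tnfsf10, Gca, Ifi47, Ifih1, Cmpk2, Trafd1, Slfn8 and Ifit1 (r = 0.987 to 0.993). Zeb1 had a mean of 2.18 RPKM at 4 h and means of 0.0686 to 0.570 RPKM in the other groups. It passed the expression minimum through its 4 h libraries alone, so it had to peak there. Ifi47 encodes another IRG, Ifih1 the RNA sensor MDA5, and Ifit1 an inhibitor of viral RNA translation. Closest to single members were Tor1aip1 for Irgm1 (0.993), Ikzf1, a lymphoid and myeloid transcription factor, for Irgm2 (0.987), Cmpk2 for Igtp (0.993), Ifih1 for Iigp1 (0.996), Aftph for Tgtp1 (0.988) and Ifi47 for Tgtp2 (0.992). Xcr1, a dendritic cell marker, was the fifth closest to Tgtp1 (0.979). Xcr1 and Ccr7 together summed to 2.60 to 3.17 RPKM at 4 h and to 1.16 RPKM or less in other groups. Like Tgtp1, Xcr1 passed the expression minimum through its 4 h libraries, so its peak there was set by that.

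Other genes of the pathway were taken from lists by name. Of 15 other IRG family symbols, 8 were listed and 6 tested. At 4 h, 5 of those 6 were higher (background 42.5%) and Irgq, a distant member, was lower (42.7%). Their median was 1.25 log2 units. Of the 5, 9930111J21Rik1 passed the expression minimum through its 4 h libraries, so it had to be higher there. Its means were 2.06 RPKM at 4 h and 0.82 RPKM at 0 h. Ifi47 (Irgd), which lies 12.4 kb from Tgtp2, rose from 29.2 ± 4.6 to 454 ± 48 RPKM (SD, n = 4), a higher level than any of the 6 members reached. Gm4951 rose by 3.21 and Gm5431 by 1.75 log2 units. With lactic acid at 24 h, 4 of the 6 were lower (background 21.7%) and none higher (25.5%). Ifi47 had a log2 difference of -0.41 ± 0.10 (SE, adjusted p = 0.00086). Both counts were the same under listed-gene scaling.

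Guanylate-binding proteins, the larger GTPases that also gather on pathogen vacuoles, were all higher at 4 h (7 of 7 tested, background 42.5%, median 3.50 log2 units). Gbp2 went from 16.0 ± 1.8 to 872 ± 76 RPKM (SD, n = 4) and was still at 813 ± 44 RPKM at 8 h, when every one of the 6 IRGs had fallen to 35.0% of its 4 h mean or less. Its log2 difference between 8 and 4 h was -0.10 ± 0.08 (SE, adjusted p = 0.29). Gbp2 was alone in this, since 6 of the 7 were lower at 8 h than at 4 h (background 36.9%) and none was higher. The median of the 7 in that step was -1.10 log2 units. Gbp5 (188 RPKM at 4 h) and Gbp3 (201 RPKM) rose by 6.58 and 5.43 log2 units. By 8 h they had fallen to 35.7 and 124 RPKM, with log2 differences from 4 h of -2.37 and -0.69. With lactic acid at 24 h, 2 of 7 were higher (background 25.5%) and 1 lower (21.7%), which is near those shares. Listed-gene scaling left 1 higher and 1 lower. Gbp2 was among the higher (0.45 ± 0.08, SE, adjusted p = 5.4e-05).

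In the IFNg receptor and signal list, 17 of 19 tested genes were higher at 4 h (background 42.5%) and 1 lower (42.7%). The median was 1.71 log2 units, and listed-gene scaling gave 16 higher and 2 lower. Ifngr1, the ligand-binding receptor chain, was the lower one, from 59.1 ± 0.9 to 31.5 ± 0.9 RPKM (SD, n = 4). Ifngr2, the signalling chain, rose from 31.9 ± 0.5 to 93.7 ± 1.8 RPKM. Irf1, an interferon regulatory factor, rose from 15.1 ± 1.1 to 67.9 ± 4.0 RPKM. The feedback inhibitors Socs1 and Socs3, which block JAK kinases, rose by 5.45 and 8.14 log2 units. Usp18, which restrains the type I interferon receptor, rose by 4.83. At 24 h Irf1 (19.7 ± 1.5 RPKM) was still above 0 h, by 0.37 log2 units, at a time when Irgm2 was below it. Listed-gene scaling turned the sign of Irf1 there (-0.09). With lactic acid at 8 h, Irf1 was lower (18.02 ± 0.92 against 25.73 ± 1.97 RPKM, -0.49 ± 0.07, SE, adjusted p = 3.3e-07). At 24 h this list had 7 of 19 genes higher (background 25.5%) and 4 lower (21.7%) with lactic acid, and 1 higher and 8 lower under that scaling.

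The genes for proteins that tag vacuoles and attach LC3 to membranes had no common direction at 4 h. Of these, 9 of 18 were higher (background 42.5%) and 6 lower (42.7%), with a median of 0.19. Listed-gene scaling gave 5 higher and 10 lower. Trim21, a ubiquitin ligase, rose from 15.3 ± 1.2 to 135 ± 11 RPKM (SD, n = 4), and Sqstm1, the ubiquitin-binding adaptor p62, from 238 ± 34 to 967 ± 51 RPKM. Rnf213 rose by 2.12 log2 units. At 24 h with lactic acid, 10 of 18 were higher (background 25.5%) and 1 lower (21.7%), or 4 higher and 2 lower under that scaling. Traf6, a ubiquitin ligase of innate signalling, was at 6.17 ± 0.86 against 3.47 ± 0.43 RPKM there, and Map1lc3a, an LC3 gene, at 26.8 ± 4.7 against 18.8 ± 6.3 RPKM (SD, n = 4).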

How the data were processed

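The expression table was deposited in RPKM for 32 libraries. Its log2 fold changes over 0 h and their p-values are the authors' own. Per the submitters' processing notes, HISAT2 2.1.0, featureCounts 1.5.0-p1, edgeR, Bowtie2 2.2.6, SAMtools 0.1.19 and MACS2 2.2.1 were used with builds mm10 and GRCm38, with no roles given. The deposited peak lists give each peak's fold enrichment (a ratio over the caller's background), its -log10 p and -log10 q, and a score. A deposited read count table gives 20537276 to 36576826 mouse reads for a ChIP-seq library. It also gives spike-in reads, which were used for no scaling here. ChIP-seq inputs were used for no comparison.

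Members and lists were chosen with earlier results of these data known. The 9942 genes that reached 1 RPKM in 4 or more libraries were tested on log2(RPKM + 1), which understates changes of low genes, with limma-trend (limma 3.58.1, R 4.3.3), 1 mean per group, 24 residual degrees of freedom and Benjamini-Hochberg adjustment over those genes. The background shares are shares of the genes the authors listed, not of a whole annotation. Within-library ratios used exact permutation tests (SciPy 1.17.1), adjusted over 15 pairs.

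Library sizes, gene lengths and whole reads were recovered from the steps of the RPKM: 100.0% of values came within 0.05 of a whole read, where 10.0% would by chance. Limma-voom on these reads is an alternative. Peaks were counted by overlap with RefSeq gene spans (GRCm38.p6) extended by 10 kb, and letters were searched in the RefSeq promoter table. The test was checked on simulated data.

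Besides the members, up to 3 called genes of each list with the largest log2 difference at 4 h and up to 2 with lactic acid at 24 h were named, with Ifngr1, Ifngr2, Irf1, Socs1 and the genes most like the members in pattern. Irgq and 9930111J21Rik1 were named after their values were seen. One gene that this rule names is not reported here. Other alternatives covered the added RPKM, the expression minimum, the scaling, gene length, the groups in the fit, a replicate block, each replicate left out, and peak windows and thresholds.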

Additional observations from a re-analysis of the deposited data

Results flagged for a closer look

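One value stood far from the rest of its group among the 48 groups of 4 examined (6 IRGs in 8 groups), where chance marks about 1 in 20. Iigp1 in replicate 4 of 24 h was 3.12 RPKM, against 6.07 to 6.21 RPKM in the other 3 libraries of that group. The same library stood apart over all genes, and its values for Irgm2 and Tgtp2 were also the lowest of their group, while that for Igtp was the highest.

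The difference with lactic acid changed between times in 3 IRGs, by limma's test of the change itself. From 8 to 16 h it rose by 0.33 in Irgm1 (adjusted p = 0.027), 0.33 in Igtp (adjusted p = 0.040) and 0.39 in Irgm2 (adjusted p = 0.033). From 16 to 24 h it changed by -0.41 in Irgm1 (adjusted p = 0.0025), -0.32 in Igtp (adjusted p = 0.023) and -0.51 in Irgm2 (adjusted p = 0.0019).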

How the results depend on the processing

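Of 816 single-IRG values with 1 replicate left out, 747 kept their direction and side of the threshold, 37 lost the call, 13 gained one and 19 changed sign. Of 624 under the other settings, 574 kept both. All 6 IRGs kept their calls at 4 h against 0 h, at 8 and 24 h against 4 h and at 16 h against 8 h under every setting run. For Tgtp1, the calls that involve 4 h were set by how it passed the expression minimum. The cause of the changes below was not tested. Depth limits Tgtp1, which had 4 to 7 reads at 0 h. With 1 replicate left out, the number of IRGs called ran from 2 to 5 for lactic acid at 8 h, 0 to 1 at 16 h, 0 to 3 for the change from 8 to 16 h and 0 to 1 for that from 8 to 24 h. Such omissions turned Igtp (-0.055 to 0.097) and Tgtp2 (-0.055 to 0.128) for the change from 8 to 24 h, Iigp1 (-0.068 to 0.065) and Irgm2 (-0.001 to 0.098) with lactic acid at 16 h, and Tgtp1 (-0.003 to 0.016), Iigp1 over Tgtp2 (-0.184 to 0.028) and Irgm2 over Iigp1 (-0.086 to 0.052) at 24 h. Listed-gene scaling called 1 IRG with lactic acid at 16 h, 0 for the change from 8 to 16 h, 5 from 16 to 24 h and 3 from 8 to 24 h. It turned Irgm2 at 8 h against 0 h (-0.201), Irgm1 at 16 h (-0.007), Tgtp2 (-0.013) and Igtp (-0.117) at 24 h, Iigp1 with lactic acid at 16 h (0.027), Tgtp1 at 24 h (-0.001), and Tgtp2 (-0.192) and Igtp (-0.276) for the change from 8 to 24 h. Removing the length trend called 2 at 24 h against 0 h, with the Igtp and Tgtp2 calls lost, and 1 with lactic acid at 16 h. It turned Tgtp1 at 24 h against 0 h (-0.013), Igtp with lactic acid at 8 h (0.033), Iigp1 at 16 h (0.039), Tgtp1 at 24 h (-0.006), Tgtp1 for the change from 16 to 24 h (-0.003), and Tgtp2 (-0.088), Irgm1 (0.055) and Igtp (-0.236) from 8 to 24 h. Tgtp1 gained calls with 0.1 RPKM added and with limma-voom, higher at 16 h than at 0 h and lower at 24 h than at 16 h. Fitting the groups compared alone gained Tgtp1 at 16 h against 0 h (0.104, adjusted p = 0.011). It lost Iigp1 with lactic acid at 24 h (-0.419, adjusted p = 0.11). That fit also called 1 at 16 h with lactic acid and 1 for the change from 8 to 24 h. For that change Tgtp2 turned with 0.1 RPKM added (-0.09), where 1 was called, with limma-voom (-0.119), and without both libraries that stood apart (-0.052). With 0.1 RPKM added, pairs turned at 4 h against 0 h for Irgm1, Irgm2 and Igtp over Tgtp1 (-1.687, -1.625, -0.274), Igtp over Tgtp2 (-0.179) and Tgtp1 over Tgtp2 (0.094), and at 24 h against 4 h for the same pairs (1.297, 0.848, 0.403, 0.091, -0.312). With lactic acid at 24 h, Irgm2 and Iigp1 over Tgtp2 turned (0.024, 0.029). A 50 kb window left 1 IRG with no M0 peak and both marks in M1. The replicate block left each count of calls as it was except that for the change from 8 to 16 h (2 in place of 3, Igtp at adjusted p = 0.052). The labels do not say what the replicate numbers mark, and the values here cannot tell. Libraries with the same number had correlations of their deviations of -0.64 to 0.54 (median 0.03). Those with different numbers had -0.67 to 0.67 (median -0.01). A library's closest match in another group had its own number in 63 of 224 comparisons. Leaving out both libraries that stood apart was chosen after seeing the data, and left 4 IRGs called for the change from 16 to 24 h and the other counts at 24 h as they were.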
